A study of Mus musculus with 6 samples.

Results

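The genes described here are 36 immediate early and heat shock genes, often used as a sign of handling stress, out of 47517 gene symbols measured. They were listed by symbol from their known function, at a time when earlier results of these data were known. Immediate early genes are transcribed soon after a stimulus without the need for new protein synthesis, mostly through serum response factor (SRF), its partners and CREB-like factors that are already in the cell. Their products are transcription factors of the AP-1, EGR and NR4A families, phosphatases that switch the upstream kinases off, and proteins that destroy short-lived mRNAs. Heat shock genes encode chaperones and are driven by heat shock factor when proteins misfold. Both groups are known to rise while tissue is digested and cells are sorted, and several immediate early factors also act in blood and endothelial development.

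The libraries came from C57BL/6 mouse embryos at embryonic day 10.5 that carried the tdTomato reporter knocked into Hlf, a transcription factor gene of blood stem and progenitor cells. Cells positive for the reporter and c-Kit and negative for CD45 were sorted from 2 places, the caudal-half region (3 libraries, called caudal) and the yolk sac (3 libraries). Both tissues were dissociated at 37 °C for 1 h in 0.125% collagenase, and each library was made from 100 lysed cells, per the labels' protocols. Whether the replicates are different embryos is not in the labels, and the tests therefore rest on a spread between libraries that could be technical. No library lacked the digestion and sort, so the level before handling was not measured. Levels are in TPM, a relative transcript abundance that is scaled for gene length, so that levels of different genes can be compared. TPM keeps no read depth, and the depth of the libraries is unknown.

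Transcripts of the sorted phenotype were present, with Kit between 42.2 and 158.8 TPM over the 6 libraries. Yolk sac replicate 2 stood apart from the other libraries on the first principal component, which held 46.9% of the variance. Its 15 yolk sac endoderm markers summed to 13117 TPM, against 743 TPM in replicate 1 and 15.7 TPM in replicate 3 of that tissue and 30.5 to 40.6 TPM in the caudal libraries. Most of the caudal endoderm sum was Trf (19.7 to 30.1 TPM) and Sox17 (5.53 to 9.57 TPM), and Sox17 is also counted among the endothelial markers below. Afp was at most 0.054 TPM in the caudal libraries and at 0.93 TPM in yolk sac replicate 3. In yolk sac replicate 2 the 10 primitive erythroid markers summed to 1608 TPM, against 6.61 to 19.2 TPM in the other 5 libraries. Its 12 blood progenitor markers summed to 358 TPM, against 764 and 871 TPM in the other yolk sac libraries and 821 to 1112 TPM in the caudal libraries. In a library made from bulk RNA, fewer cells of a type and less RNA per cell cannot be told apart. Results below are therefore also given without that library.

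All 36 genes were above 0 TPM in all 6 libraries. Taken as a sum, the 7 heat shock genes were more abundant than the 29 others. The 7 summed to between 3118 and 5234 TPM in a library, and the 29 others to between 749 and 1399 TPM. Gene by gene this did not hold, since Hspb1 averaged 61.9 TPM over the 6 libraries and Jun 321 TPM. Of the 36 genes, 35 reached 1 TPM in at least 3 libraries and were compared between tissues with limma on log2(TPM + 1). Egr3, which encodes a zinc finger factor, did not reach it, and was at 1.57, 0.86 and 0.60 TPM in caudal replicates 1, 2 and 3 and at 0.98, 0.48 and 0.30 TPM in the yolk sac replicates in that order. Values are given in that order throughout.

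**Figure D1:**
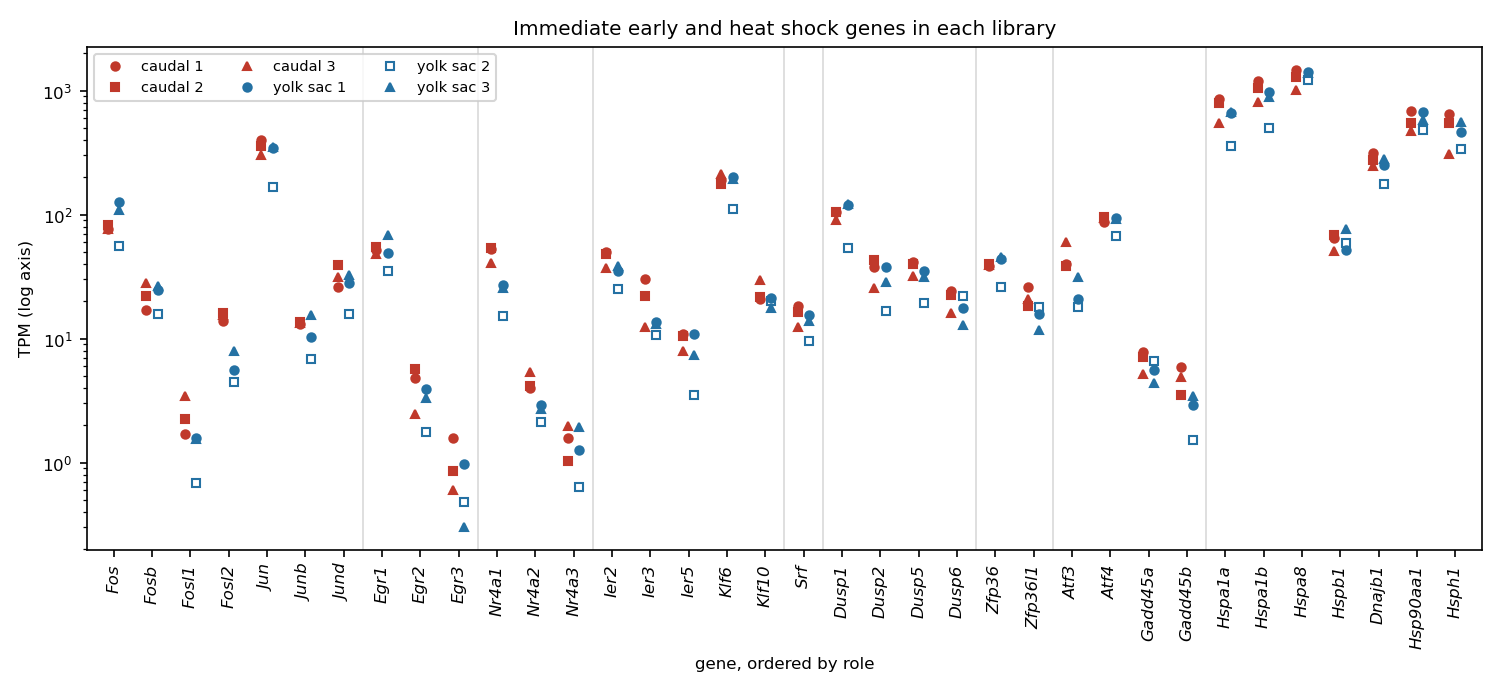
TPM on a log axis for each of the 36 genes, ordered by role, with caudal libraries in red, yolk sac libraries in blue and yolk sac replicate 2 as open squares. Yolk sac replicate 2 is the lowest library for most genes. Fosl1, Fosl2, Nr4a1, Nr4a2, Zfp36l1, Atf3 and Gadd45b show no overlap between the red and blue points, by a small margin for Fosl1, Zfp36l1 and Gadd45b.

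No gene of the list passed the test between tissues. At an adjusted p under 0.05 (limma, Benjamini-Hochberg), 0 of 35 genes passed, where 0.383% of all 16436 tested genes did (0.347% higher in caudal and 0.0365% higher in yolk sac). At an unadjusted p under 0.05 there were 4 of 35, namely Fosl2, Nr4a1, Nr4a2 and Atf3, where 9.63% of all tested genes did. Differences, caudal minus yolk sac, were positive for 31 of 35 genes with a median of 0.34, where 62.0% of all tested genes were positive with a median of 0.090. Without yolk sac replicate 2, 23 of 35 were positive with a median of 0.082, where 52.4% of all tested genes were positive with a median of 0.016. In that fit again 0 of 35 passed, where 0.371% of all genes did, and 6 had an unadjusted p under 0.05, where 9.22% of all genes did. Values of 7 genes did not overlap between the tissues and were higher in all 3 caudal libraries, and 0 genes were higher in all 3 yolk sac libraries. Over all tested genes these shares were 11.5% and 4.14%.

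**Figure D2:**
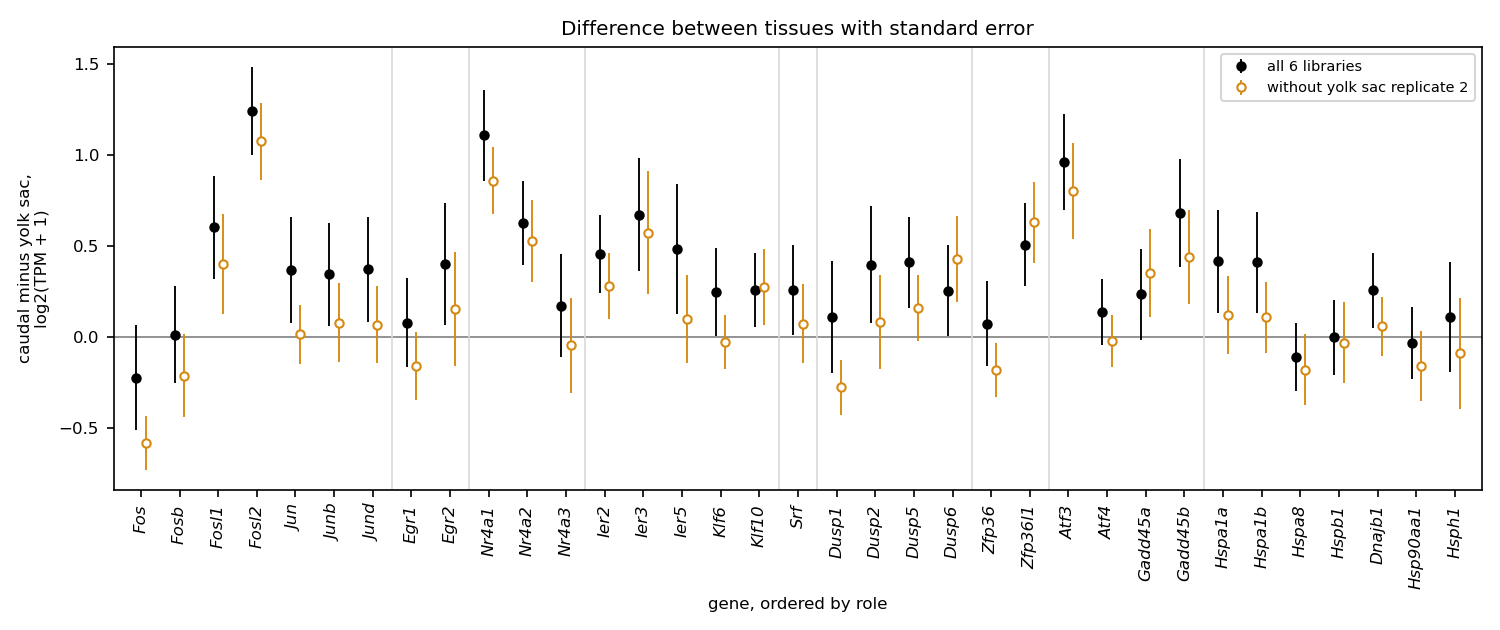
Difference between tissues, caudal minus yolk sac on log2(TPM + 1), for the 35 tested genes, with bars of 1 standard error from limma. Filled points use all 6 libraries and open points leave out yolk sac replicate 2. Fosl2, Nr4a1 and Atf3 stay above 0.8 in both fits, while Fos lies at -0.22 and -0.58.

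No member of the AP-1 family passed the test. AP-1 is a dimer of a FOS and a JUN protein. Fos, the founding member, was at 77.2, 81.9 and 76.0 TPM in the caudal libraries and at 126, 55.5 and 109.6 TPM in the yolk sac. Yolk sac replicates 1 and 3 were above all caudal libraries and yolk sac replicate 2 below them, so the tissues overlapped. The log2 difference of Fos was -0.22 (SE 0.29, limma adjusted p = 0.841), and it was -0.58 (adjusted p = 0.227) without yolk sac replicate 2. Fosl2, which encodes the longer-lived FOS relative FRA2, was at 13.9, 16.1 and 15.6 TPM in the caudal libraries and 5.62, 4.43 and 7.90 TPM in the yolk sac. All caudal libraries were higher, and those of the caudal tissue were close to each other. Its log2 difference of 1.24 (SE 0.24, limma adjusted p = 0.0923) had the greatest size among the 35 genes, and it was 1.08 without yolk sac replicate 2 (adjusted p = 0.113).

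Fosl1, the gene of FRA1, was near the limit of the filter, at 1.69, 2.23 and 3.44 TPM in the caudal libraries and 1.57, 0.68 and 1.55 TPM in the yolk sac. The tissues did not overlap, but the gap between caudal replicate 1 and yolk sac replicate 1 was small (log2 difference 0.60, SE 0.29, limma adjusted p = 0.555). Jun was the most abundant of the family, at 398, 358 and 305 TPM in the caudal libraries and 343, 167 and 354 TPM in the yolk sac. Only yolk sac replicate 2 was far from the others. The log2 difference of Jun was 0.37 (SE 0.29, adjusted p = 0.735) with all libraries and 0.015 without yolk sac replicate 2. Fosb, Junb and Jund lay between 6.86 and 39.3 TPM and overlapped between tissues, with adjusted p between 0.732 and 0.993. Exons of Fosl1, Jun, Junb and Jund overlap those of Ccdc85b, Junos, Prdx2 and Gm11175 on the other strand, and the use of strand is not stated, so their values are less certain.

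The NR4A genes encode orphan nuclear receptors that need no ligand and are induced together with Fos. Nr4a1 was at 52.7, 54.1 and 40.5 TPM in the caudal libraries and at 27.2, 15.3 and 25.6 TPM in the yolk sac. The lowest caudal library was above the highest yolk sac library. Caudal libraries averaged 49.1 ± 7.46 TPM (SD, n = 3) and those of the yolk sac 22.7 ± 6.49 TPM (SD, n = 3). This is 1.11 on the log2 scale (SE 0.25, limma adjusted p = 0.155). Without yolk sac replicate 2 that difference was 0.86 (adjusted p = 0.149). Nr4a2 was lower but showed the same order, at 4.02, 4.16 and 5.40 TPM against 2.93, 2.11 and 2.69 TPM (log2 difference 0.63, SE 0.23, adjusted p = 0.446). Nr4a3 overlapped between the tissues, at 1.58, 1.03 and 1.96 TPM against 1.26, 0.63 and 1.92 TPM. The Nr4a1 gene lies on chromosome 15 (101254269 to 101274795), Fosl2 on chromosome 5 (32135801 to 32157842), Atf3 on chromosome 1 (191170296 to 191218039) and Fos on chromosome 12 (85473890 to 85477273) of GRCm38.

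Of the 4 ATF and GADD45 stress genes none passed the test. Atf3, a repressor of the ATF family that responds to many stresses, was at 40.2, 38.6 and 60.4 TPM in the caudal libraries and 20.8, 18.0 and 31.5 TPM in the yolk sac. Caudal replicate 3 and yolk sac replicate 3 were the highest of their tissues, and the tissues did not overlap. The log2 difference of Atf3 was 0.96 (SE 0.26, limma adjusted p = 0.262), and 0.80 without yolk sac replicate 2 (adjusted p = 0.378). Atf4, the main factor of the integrated stress response, was at 87.2, 95.3 and 93.2 TPM against 94.5, 66.7 and 91.8 TPM, with only yolk sac replicate 2 apart. Gadd45b, which activates stress kinases, was at 5.92, 3.48 and 4.86 TPM against 2.92, 1.52 and 3.45 TPM (log2 difference 0.68, SE 0.30, adjusted p = 0.522). Its gap between caudal replicate 2 and yolk sac replicate 3 was very small. Gadd45a lay between 4.41 and 7.82 TPM and overlapped.

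Promoter sequence of Nr4a1 and Atf3 is shown because their values did not overlap between the tissues, and the promoters of Srf and Dusp5 because they hold the binding sequence of SRF, the CArG box. RefSeq start sites (GRCm38.p6) were found for 29 of the 36 genes, with 35 windows of 250 bases before a start site. Both strands were searched for the CArG box, TGACGTCA (the CREB site), TGACGCA (a variant of it), TGACTCA (the AP-1 site), GAANNTTC (part of the heat shock element) and TGATGNAA (the ATF4 and C/EBP composite). These letters do not contain one another. The CArG box was found in 7 of the 35 member windows, those of Dusp5, Egr2, Srf and Zfp36, and in 1.47% of 32851 windows of all genes. TGACGCA was found for Dnajb1, Fosb and Nr4a1 (3 of 35 member windows, 1.75% of all windows) and TGACGTCA for Dusp1 (1 of 35, 1.55%). TGACTCA was found for 0 genes (0 of 35, 4.46%) and TGATGNAA for Atf3 (1 of 35, 3.45%). For each sequence, a gene not named had either no match or no window. A match is only a match of letters, and distal sites were not searched. The windows follow 5′ to 3′ on the strand of the gene. Capitals mark TGACGCA or its reverse complement in Nr4a1, the reverse complement of TGATGNAA in Atf3, and the CArG boxes in Srf and Dusp5. The Nr4a1 window is chr15:101266596-101266845 on the plus strand, that of Atf3 chr1:191183334-191183583 on the minus strand, that of Srf chr17:46556163-46556412 on the minus strand and that of Dusp5 chr19:53528895-53529144 on the plus strand.
Nr4a1: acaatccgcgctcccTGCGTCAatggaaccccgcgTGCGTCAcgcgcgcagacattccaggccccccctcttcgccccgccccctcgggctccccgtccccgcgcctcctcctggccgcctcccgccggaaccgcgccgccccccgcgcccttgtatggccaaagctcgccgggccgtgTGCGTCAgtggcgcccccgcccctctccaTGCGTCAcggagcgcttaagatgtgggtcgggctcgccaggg
Atf3: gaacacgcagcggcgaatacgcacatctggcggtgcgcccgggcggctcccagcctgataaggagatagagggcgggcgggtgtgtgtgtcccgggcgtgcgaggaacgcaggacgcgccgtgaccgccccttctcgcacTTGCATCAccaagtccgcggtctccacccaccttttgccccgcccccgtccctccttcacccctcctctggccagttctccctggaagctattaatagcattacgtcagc
Srf: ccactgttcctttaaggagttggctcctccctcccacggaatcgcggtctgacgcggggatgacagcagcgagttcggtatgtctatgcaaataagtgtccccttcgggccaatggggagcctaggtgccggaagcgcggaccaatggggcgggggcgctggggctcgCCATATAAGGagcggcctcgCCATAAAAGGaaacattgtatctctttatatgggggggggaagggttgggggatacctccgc
Dusp5: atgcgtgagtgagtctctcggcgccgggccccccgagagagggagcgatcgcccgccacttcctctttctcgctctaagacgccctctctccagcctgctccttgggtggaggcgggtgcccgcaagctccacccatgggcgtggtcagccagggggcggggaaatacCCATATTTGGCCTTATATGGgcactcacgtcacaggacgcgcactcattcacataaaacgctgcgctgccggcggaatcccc
The Nr4a1 window holds 4 matches, which begin 235, 215, 71 and 42 bases before the start site. Those of Srf begin 82 and 62 bases before it, and those of Dusp5 82 and 72 bases.

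The EGR zinc finger factors, the classical targets of SRF, overlapped between tissues. Egr1 was at 52.0, 54.9 and 48.6 TPM in the caudal libraries and 49.3, 34.9 and 68.1 TPM in the yolk sac. The yolk sac libraries spanned the caudal ones on both sides (log2 difference 0.079, SE 0.24, limma adjusted p = 0.944). Egr2 lay between 1.75 and 5.67 TPM (adjusted p = 0.751). Srf itself was at 18.4, 16.3 and 12.3 TPM against 15.4, 9.60 and 13.9 TPM, an overlap of most libraries (log2 difference 0.26, adjusted p = 0.782).

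Among the IER and KLF genes, Ier3 and Ier5 varied most between libraries of 1 tissue. Ier3, a survival gene, was at 30.2, 22.1 and 12.4 TPM in the caudal libraries and 13.5, 10.6 and 13.1 TPM in the yolk sac. Caudal replicates 1 and 2 were high, while caudal replicate 3 lay among the yolk sac values (log2 difference 0.67, SE 0.31, limma adjusted p = 0.545). Ier5, a regulator of heat shock factor, was at 10.9, 10.5 and 7.94 TPM against 10.8, 3.48 and 7.42 TPM, so that its low value was in yolk sac replicate 2 alone. Klf6, a zinc finger factor needed in early blood formation, was at 191, 177 and 214 TPM against 202, 111 and 193 TPM. Again only yolk sac replicate 2 was low. Ier2 (25.2 to 49.8 TPM over the 6 libraries) and Klf10, a target of TGF-beta (17.7 to 29.4 TPM), overlapped too in TPM as deposited, with adjusted p of 0.554 and 0.732.

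The DUSP feedback genes overlapped between the tissues and 0 of 4 passed. DUSP proteins remove phosphate from MAP kinases and so end the signal that induces immediate early genes. Dusp1 was at 104, 106 and 90.1 TPM in the caudal libraries and 119.8, 53.6 and 122 TPM in the yolk sac. Dusp2 was at 38.1, 43.4 and 25.6 TPM against 38.0, 16.6 and 28.4 TPM. In both genes yolk sac replicate 2 was the lowest library and the others overlapped, with log2 differences of 0.11 (SE 0.31) and 0.40 (SE 0.32) and limma adjusted p of 0.938 and 0.741. Dusp5, which acts on ERK, was at 41.4, 39.6 and 31.7 TPM against 35.4, 19.3 and 31.4 TPM. Caudal replicate 3 lay below yolk sac replicate 1 by a small margin, and after each of 4 other scalings given below all caudal libraries of Dusp5 were higher. Dusp6, also an ERK phosphatase, lay between 12.9 and 24.0 TPM and was not lowest in yolk sac replicate 2 but in replicate 3. The log2 difference of Dusp1 was -0.28 without yolk sac replicate 2 (adjusted p = 0.676).

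Zfp36 and Zfp36l1 encode proteins that bind AU-rich mRNAs, among them those of immediate early genes, and promote their decay. Zfp36 was at 38.2, 40.01 and 39.5 TPM in the caudal libraries and 44.0, 25.9 and 45.3 TPM in the yolk sac. As with Fos, yolk sac replicates 1 and 3 were above all caudal libraries and replicate 2 was below (log2 difference 0.073, SE 0.23, limma adjusted p = 0.944). Zfp36l1 was at 26.1, 18.5 and 20.9 TPM against 15.8, 17.9 and 11.7 TPM. The tissues did not overlap by a small margin (log2 difference 0.51, SE 0.23, adjusted p = 0.534), and its lowest library was yolk sac replicate 3. Exons of Zfp36, Zfp36l1, Dusp1, Dusp5 and Gadd45a also overlap a gene on the other strand (Ergic1 for Dusp1), with the same limit as for Jun.

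Heat shock genes overlapped between the tissues in all 7 cases in TPM as deposited. The exceptions under other scalings were Hspa1b, higher in all caudal libraries after 2 of them, and Hspa8, higher in all yolk sac libraries after median centring. Hspa8, the constitutive HSC70 chaperone and the most abundant member, was at 1472, 1286 and 1004 TPM in the caudal libraries and 1422, 1209.98 and 1384 TPM in the yolk sac. Caudal replicate 3 was its lowest library (log2 difference -0.11, SE 0.19, limma adjusted p = 0.891). The inducible HSP70 genes Hspa1a and Hspa1b were at 861, 799 and 551 TPM and 1187, 1056 and 812 TPM in the caudal libraries. In the yolk sac they were at 664, 359 and 669 TPM and 982, 497 and 886 TPM. Both were lowest in yolk sac replicate 2 and next lowest in caudal replicate 3, with log2 differences of 0.42 and 0.41 (SE 0.28 each) and adjusted p of 0.702 and 0.699. Without yolk sac replicate 2 these were 0.12 and 0.11. Hsph1, a nucleotide exchange factor of HSP70, ranged from 310 to 653 TPM in the caudal libraries and from 337 to 558 TPM in the yolk sac. Dnajb1, an HSP70 partner (176 to 314 TPM), Hsp90aa1, the inducible HSP90 (474 to 681 TPM), and the small chaperone gene Hspb1 (51.0 to 76.1 TPM) also overlapped. Of the 7 genes, 4 had positive differences (median 0.11), and without yolk sac replicate 2 there were 3 (median -0.032). The adjusted p of the 7 genes was between 0.699 and 0.999.

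Hspa1a and Hspa1b cannot be fully separated. Of the 50-base windows of the Hspa1b transcript (GENCODE M21), 62.31% occur unchanged in that of Hspa1a, so that reads could be assigned to either copy, and the exons of Hspa1a overlap those of Gm20481. Their promoters are shown because they are almost the same and hold the heat shock letters GAANNTTC, in capitals. These letters were also found for Fosl2, Hspb1 and Jun, which with the 2 HSP70 genes makes 5 of 35 member windows, and in 6.69% of all windows. Over 250 bases before the start site the sequences differ at 3 bases. Both are on the minus strand of GRCm38.p6, Hspa1a at chr17:34972157-34972406 and Hspa1b at chr17:34959239-34959488.
Hspa1a: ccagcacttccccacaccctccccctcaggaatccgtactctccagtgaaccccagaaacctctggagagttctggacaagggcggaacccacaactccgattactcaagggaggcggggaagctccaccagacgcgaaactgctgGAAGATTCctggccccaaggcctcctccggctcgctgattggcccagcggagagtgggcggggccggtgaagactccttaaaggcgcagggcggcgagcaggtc
Hspa1b: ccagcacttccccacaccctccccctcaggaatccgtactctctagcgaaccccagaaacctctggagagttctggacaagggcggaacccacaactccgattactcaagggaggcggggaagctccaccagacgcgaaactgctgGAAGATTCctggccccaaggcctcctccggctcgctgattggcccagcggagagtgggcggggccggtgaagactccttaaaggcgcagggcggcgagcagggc
The match begins 104 bases before the start site in both.

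For most of the list the pattern over the libraries was that of single libraries. Yolk sac replicate 2 was the lowest of the 6 libraries for 27 of 35 genes, where it was lowest for 45.0% of all tested genes. The median deviation of the 35 genes from their mean over the libraries was -0.58 there on log2(TPM + 1), against -0.23 for all tested genes. In the other libraries this median was between -0.022 and 0.31. The exceptions were Klf10, Dusp6, Zfp36l1 and Gadd45a, which were lowest in yolk sac replicate 3, and Hspa8, Hspb1, Hsp90aa1 and Hsph1, which were lowest in caudal replicate 3. Under the scalings tried, among them quantile normalization and median centring, yolk sac replicate 2 was lowest for 26 to 29 of the 35 or 36 members that passed the filter. Of all tested genes it was lowest for 33.3% to 47.0% under these scalings. All 7 heat shock genes were lowest in caudal replicate 3 among the caudal libraries, where 64.4% of all tested genes were. After quantile normalization this held for 5 of 7, where 34.8% of all genes did, and after median centring for 4 of 7, where 29.9% did. For the 28 other tested members it held for 14 in TPM as deposited, for 10 after quantile normalization and for 11 after median centring. In TPM as deposited, the highest caudal library was replicate 1 for 6 of 7 heat shock genes, where it was for 58.9% of all tested genes. After median centring this held for 4 of 7, where it did for 25.2%.

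**Figure D3:**
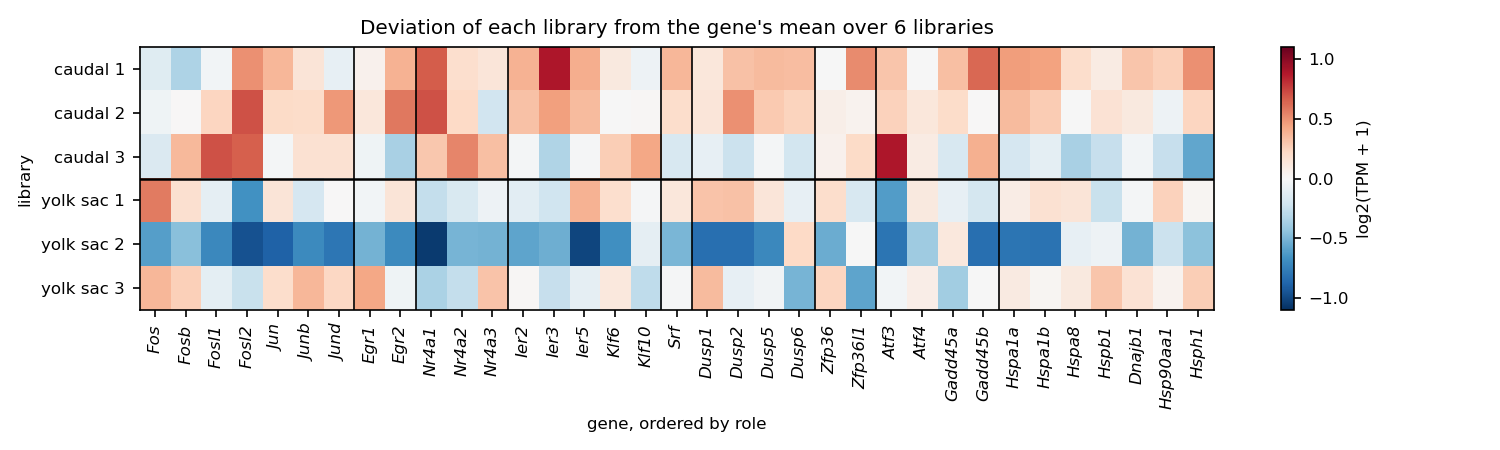
Deviation of each library (rows) from the mean over the 6 libraries for the 35 tested genes (columns, ordered by role), in log2(TPM + 1), with red above and blue below the mean. Yolk sac replicate 2 is blue for most genes, and Fosl2, Nr4a1, Nr4a2 and Atf3 are red or pale in the caudal rows and blue or pale in the yolk sac rows.

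The low values of yolk sac replicate 2 were found beside low values of blood genes in the same library. The 29 immediate early members summed to 1399, 1364 and 1275 TPM in the caudal libraries and 1317, 749 and 1317 TPM in the yolk sac. Divided by the sum of the 12 blood progenitor markers of the same library, this came to 1.26, 1.38 and 1.55 in the caudal libraries and 1.51, 2.09 and 1.72 in the yolk sac. By this ratio yolk sac replicate 2 was the highest library. The ratio was chosen after the values were seen, and the denominator itself moved, since 1 of its 12 genes passed the test toward the caudal cells and 11 were positive. The part of other cells in the low values was not tested.

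**Figure D4:**
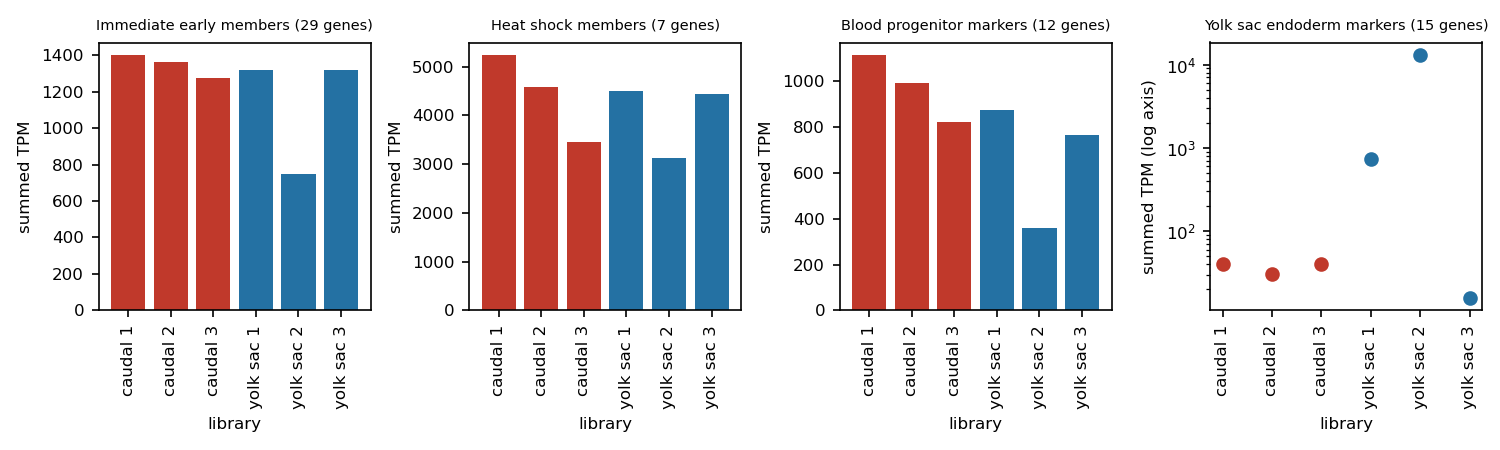
Summed TPM in each library of the 29 immediate early members, the 7 heat shock members and 12 blood progenitor markers (bars from 0), and of 15 yolk sac endoderm markers (points on a log axis), with caudal libraries in red and yolk sac libraries in blue. Yolk sac replicate 2 has the lowest sums in the first 3 panels, 749, 3118 and 358 TPM, and the highest endoderm sum, 13117 TPM.

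Fosl2, Nr4a1, Nr4a2 and Atf3 are the 4 members with an unadjusted p under 0.05, a share of the list near that of all tested genes (9.63%). The share of the sum of squares over the 6 libraries that lay between the tissues was 89.2%, 79.3%, 81.4% and 71.1% for these genes. Its median was 21.9% over the 35 members and 17.1% over all tested genes. These values come from the same contrast in which the 4 genes were singled out and add no support to it. Their caudal and yolk sac values did not overlap under rescaling of annotated genes, rescaling without mitochondrial, ribosomal and globin genes, quantile normalization or median centring. Under these scalings 8, 8, 8 and 6 members were higher in all caudal libraries, where 16.0%, 15.7%, 11.0% and 10.5% of all tested genes were. Ier2 and Dusp5, which overlapped in TPM as deposited, did not overlap in any of these 4 scalings, Ier3 did not in 3 and Hspa1b did not in 2, after rescaling without mitochondrial, ribosomal and globin genes and after quantile normalization. Fosl1, Zfp36l1 and Gadd45b overlapped in at least 3 of the 4. A further fit took as covariate the mean log2 level of other immediate early genes (36 tested of 38), a way of adjusting for a response shared by the library. That level was 3.65 in yolk sac replicate 2 and 3.96 to 4.11 in the other libraries, so it mainly set that library apart. With this covariate, differences were 1.05 for Fosl2, 0.73 for Nr4a1, 0.51 for Nr4a2 and 0.81 for Atf3. The median of the 35 members was then -0.044 and 16 were positive. None of these 4 genes passed in that fit (limma adjusted p between 0.295 and 0.629). In a fit with array weights, caudal replicate 2 had a weight of 4.44, yolk sac replicate 3 of 3.24 and yolk sac replicate 2 of 0.227. There Nr4a1 (adjusted p = 0.00628) and Fosl2 (0.0123) passed, where 5.82% of all tested genes did. Over their 20 alternatives the adjusted p of Nr4a1 was between 0.00628 and 0.487 and that of Fosl2 between 0.0123 and 0.536, and each passed in 1.

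Ratios within a library do not depend on how the library was scaled. They were set against Fos after the values were seen, and are given with no test. Nr4a1 divided by Fos was 0.68, 0.66 and 0.53 in the caudal libraries and 0.22, 0.28 and 0.23 in the yolk sac. Fosl2 divided by Fos was 0.18, 0.20 and 0.21 against 0.045, 0.080 and 0.072. Yolk sac replicate 2, which was low for both genes, lay with the other yolk sac libraries in these ratios. Ratios of Atf3, Nr4a2, Jun, Egr1 and Dusp1 to Fos did not overlap either, and the ranges for Egr1 (0.64 to 0.67 against 0.39 to 0.63) almost touched. All of them share Fos as denominator. With Egr1 as denominator, Nr4a1 came to 1.01, 0.98 and 0.83 in the caudal libraries and 0.55, 0.44 and 0.38 in the yolk sac. With Jun as denominator the ratios of Nr4a1 (0.13 to 0.15 against 0.072 to 0.091) and Fosl2 (0.035 to 0.051 against 0.016 to 0.027) did not overlap, but that of Atf3 did. Among heat shock genes, Hspa1b divided by Hspa8 was 0.81, 0.82 and 0.81 in the caudal libraries and 0.69, 0.41 and 0.64 in the yolk sac. The ratios of Hspa1a and Dnajb1 to Hspa8 did not overlap either, while that of Hsph1 did. Fos was the only 1 of the 28 tested immediate early members with a negative difference (-0.22). Hspa8 had the most negative difference of the 7 heat shock genes (-0.11). Dividing by either gene moves a ratio toward the caudal libraries, also for Egr1 and Dusp1, whose own values overlapped. Of the 16 ratios computed, 14 did not overlap. The share over all gene pairs was not computed, so this count is no result about these genes. These ratios describe the 6 libraries only.

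**Figure D5:**
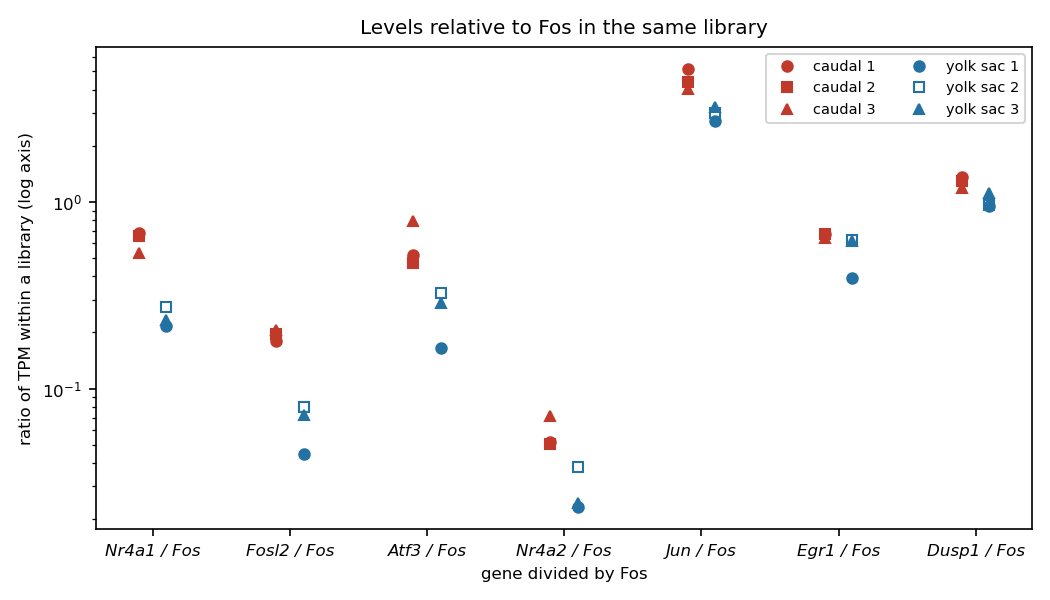
TPM of 7 genes divided by that of Fos in the same library, on a log axis, with caudal libraries in red, yolk sac libraries in blue and yolk sac replicate 2 as open squares. Caudal ratios of Nr4a1 to Fos lie between 0.53 and 0.68 and yolk sac ratios between 0.22 and 0.28, while those of Egr1 almost touch.

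Endothelial transcripts were also higher in the caudal libraries. The 15 endothelial markers summed to 568 to 764 TPM in the caudal libraries and 179 to 356 TPM in the yolk sac, with positive differences for all 15 (62.0% of all tested genes). Of these 4 passed, namely Cdh5, Clec14a, Mmrn2 and Sox18, where 0.347% of all tested genes passed toward the caudal cells. The 12 markers of mesenchyme and smooth muscle summed to 47.2 to 58.5 TPM and 8.08 to 9.17 TPM, and 2 of the 6 tested, Acta2 and Myl9, passed toward the caudal cells. Macrophage markers (12 genes, C1qa listed at 0 in all libraries) summed to 43.2 to 52.3 and 33.8 to 54.5 TPM, of which Lyz2 alone held 36.7 to 44.5 and 21.3 to 42.5 TPM. Of 3 tested, Mrc1 passed toward the yolk sac, at 0.15, 0.12 and 0.24 TPM against 2.53, 2.80 and 3.12 TPM, where 0.0365% of all tested genes did. The 10 megakaryocyte markers summed to 167 to 213 and 92.7 to 250.3 TPM, and of 9 tested Vwf, which endothelial cells express too, passed toward the caudal cells. The sort kept cells negative for CD45, which macrophages carry, and positive for c-Kit and the reporter. The part of these cell types in the values of Fosl2, Nr4a1 and Atf3 was not tested.

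No gene of the neighbouring pathways passed the test. Of 38 other immediate early genes, 36 were tested, 0 passed, 7 had an unadjusted p under 0.05, 25 were positive (9.63% and 62.0% of all tested genes) and the median difference was 0.21 (0.096 without yolk sac replicate 2). Plk2, a polo-like kinase also induced by p53, was at 88.3, 68.1 and 71.4 TPM against 56.0, 24.7 and 38.3 TPM (log2 difference 0.99, SE 0.28, limma adjusted p = 0.287). Btg2, an antiproliferative gene, was at 64.5 against 39.6 TPM (adjusted p = 0.292), and Trib1, a pseudokinase gene, at 4.30 against 2.10 TPM (adjusted p = 0.421). None of these 3 overlapped between tissues, but they were picked by smallest p. Of all tested genes, 11.5% were higher in all caudal libraries. Of 27 upstream kinases and SRF, CREB and HSF factors 0 passed and 2 had an unadjusted p under 0.05 (9.63% of all tested genes). In this list 19 were positive (62.0% of all tested genes), with a median of 0.079 against 0.090 for all tested genes. Elk3, an SRF partner of vessels, was at 28.9, 25.8 and 25.0 TPM against 15.7, 7.16 and 15.2 TPM (log2 difference 1.08, SE 0.29, adjusted p = 0.251). Mapk8, the JNK1 gene, was at 13.3 against 7.86 TPM and Mkl2, an SRF coactivator gene, at 4.77 against 3.12 TPM, with adjusted p of 0.377 and 0.561.

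Chaperones outside the list had mostly negative differences. Of 23 tested genes 0 passed, 1 had an unadjusted p under 0.05 and 6 were positive (median -0.15), where 9.63% and 62.0% of all tested genes did. Dnajb4, an HSP40 gene, was at 12.1 TPM in the caudal cells and 21.1 TPM in the yolk sac (limma adjusted p = 0.473). Hspa2 was at 3.78 against 2.51 TPM and Hspa14 at 58.9 against 75.4 TPM, with adjusted p of 0.579 and 0.614. Among 14 p53 targets, which share Plk2 and Btg2 with the other immediate early genes, 0 passed, 2 had an unadjusted p under 0.05 and 8 were positive (median 0.10), against the same 9.63% and 62.0%. Ccng1, the cyclin G1 gene, was at 16.2 against 20.8 TPM (adjusted p = 0.619).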

How the data were processed

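The values in the 6 deposited tables are a normalized signal, headed TPM per the file headers. The submitters' processing notes name HISAT2, StringTie and the mm10 build. For versions, annotation and strand, nothing is stated (not given in the sources used here). In each library, rows of assembled loci add up to 1000000 TPM and annotated genes to a further 555230 to 684549 TPM in the same column, so both kinds of row describe many of the same reads. Only annotated genes were used, 47643 gene IDs, and rows with 1 symbol were summed. Symbols of 27 IDs that had been turned into dates were restored by ID. Coordinates are from GENCODE M21 (GRCm38, the assembly of mm10).

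The 16436 genes that reached 1 TPM in 3 libraries were fitted with limma 3.58.1 (R 4.3.3) as a linear model of tissue on log2(TPM + 1), with an empirical Bayes fit, a mean-variance trend, two-sided tests and Benjamini-Hochberg adjustment over all tested genes at 0.05. The fit was run on simulated data with larger changes than any member showed. That run does not speak to its power at the sizes reported here. Lists and members were chosen with earlier results of these data known. Values in each library are printed for the member with the highest mean in each role, members whose tissues do not overlap, the 6 with the greatest absolute difference and the 6 with the widest range within a tissue, and of each other list the 3 genes of smallest p are named. Hspa1a and Hspa1b were added for their sequence, and Dusp5, Egr3 and Nr4a3 were also printed outside this rule. The fit was repeated with another pseudocount (0.1 or 5), no filter, a minimum mean of 10 TPM, the scalings named in the text, robust empirical Bayes, array weights, the replicate number as a block, covariates, and leaving out libraries.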

Additional observations from a re-analysis of the deposited data

How the results depend on the processing

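No alternative apart from array weights brought a member past the threshold, and there 2 of 35 passed. Depth is unknown in TPM, and 100 cells per library limit the precision of genes near 1 TPM, such as Fosl1, Egr3 and Nr4a3. The number of all tested genes higher in caudal and in yolk sac cells, 57 and 6, was 774 and 182 with array weights, 8 and 0 when a gene needed a mean of 10 TPM, 0 and 0 with no filter, 37 and 2 with a pseudocount of 5, 11 and 3 with the level of other immediate early genes as a covariate and 13 and 0 without yolk sac replicates 1 and 2. With the endoderm level as a covariate the second number was 11. That level was the mean log2 of the 4 of 15 endoderm markers that passed the filter, Trf, Ctsh, Apom and Sox17. Sox17 is on the endothelial list too, and markers such as Afp were not part of the mean. The level was 6.39 in yolk sac replicate 2, 3.61 and 1.46 in yolk sac replicates 1 and 3, and 2.48 to 2.67 in the caudal libraries. Leaving out 1 library gave 2 to 55 and 0 to 6. Whether the replicate numbers pair the samples is not in the labels. Deviations of same-numbered libraries correlated at -0.021 to 0.019 across genes, and those of other pairs of libraries at -0.029 to 0.034. These values cannot decide whether same-numbered libraries share a source. With the replicate number as a block 0 and 0 genes passed and 0 members. An unadjusted p under 0.05 was found by limma for 2547 genes with no filter and 1611 with the block, against 1583 in the fit as reported.

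With the level of other immediate early genes as a covariate 16 members were positive, and the median was -0.044 for all members, 0.0049 for the immediate early members and 0.00086 for the list that made the covariate, as its construction requires. In that fit Fosb (-0.24), Jun (-0.16), Egr1 (-0.23), Nr4a3 (-0.12), Ier5 (-0.12), Klf6 (-0.14), Srf (-0.060), Dusp1 (-0.45), Dusp2 (-0.10), Zfp36 (-0.28), Atf4 (-0.077), Hspa1a (-0.051), Hspa1b (-0.072), Dnajb1 (-0.044) and Hsph1 (-0.24) changed sign. With array weights Fosb (-0.22), Junb (-0.015), Egr1 (-0.19), Nr4a3 (-0.32), Klf6 (-0.055), Dusp1 (-0.16) and Zfp36 (-0.14) did. With the endoderm level of 4 markers as a covariate Fosb (-0.18), Egr1 (-0.16), Nr4a3 (-0.041), Dusp1 (-0.19), Zfp36 (-0.13) and Hsph1 (-0.063) did. Without yolk sac replicates 1 and 2 Fosb (-0.26), Jun (-0.0089), Junb (-0.20), Jund (-0.043), Egr1 (-0.39), Nr4a3 (-0.23), Dusp1 (-0.29), Zfp36 (-0.20), Dnajb1 (-0.031) and Hsph1 (-0.22) did. Median centring turned Fosb (-0.076), Egr1 (-0.010) and Zfp36 (-0.017), quantile normalization Fosb (-0.016), Nr4a3 (-0.034) and Hspb1 (0.013), and the 2 rescalings Hspb1 (0.029 and 0.021). None of these values passed the test in either fit, and the cause was not tested.

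Leaving out 1 library moved the difference of Fos between -0.58 and 0.0050, Fosb between -0.21 and 0.19, Egr1 between -0.16 and 0.31, Nr4a3 between -0.046 and 0.37, Klf6 between -0.028 and 0.40, Dusp1 between -0.28 and 0.31 and Zfp36 between -0.18 and 0.21. It moved Atf4 between -0.020 and 0.23, Hspa8 between -0.23 and 0.043, Hspb1 between -0.13 and 0.15, Hsp90aa1 between -0.17 and 0.089 and Hsph1 between -0.11 and 0.42. With array weights 2 other immediate early genes, 3 upstream factors, 1 chaperone, 2 ATF4 targets, 2 endoplasmic reticulum genes and 1 p53 target passed, against 0 in each list as reported. The median of the endoplasmic reticulum list was -0.28 with array weights, -0.29 without yolk sac replicates 1 and 2, and -0.51 to -0.33 leaving out 1 library. After median centring 4 heat shock genes were lowest in caudal replicate 3.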

Other observations

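Genes of the unfolded protein response in the endoplasmic reticulum had negative differences, unlike most of the immediate early genes. Of 14 genes tested, 13 were lower in the caudal cells on average, where 6238 of all 16436 tested genes were. Of the 14, 0 passed the test, with 6 at an unadjusted p under 0.05 (9.63% of all tested genes). Their median log2 difference was -0.40, and without yolk sac replicate 2 it was -0.33 with 0 of 14 positive (52.4% of all tested genes). Hspa5, the lumenal HSP70 BiP, was at 318, 322 and 299.9 TPM in the caudal libraries and 495, 379 and 433 TPM in the yolk sac, with no overlap (log2 difference -0.47, SE 0.16, limma adjusted p = 0.384). The gene was picked by its small p, and 4.14% of all tested genes were higher in all yolk sac libraries. Hsp90b1, the lumenal HSP90, was at 191, 189 and 204 TPM against 295, 341 and 245 TPM (adjusted p = 0.287), and Manf, a secreted stress protein gene, at 24.5 against 36.7 TPM (adjusted p = 0.361). The 14 genes summed to 1342 to 1403 TPM in the caudal libraries and 1714 to 1929 TPM in the yolk sac.

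ATF4 targets were spread on both sides, with 8 of 20 tested genes positive (62.0% of all tested genes), 0 passing, 3 with an unadjusted p under 0.05 (9.63%) and a median of -0.15. Chac1, a glutathione-degrading enzyme gene, was at 3.22, 2.26 and 12.6 TPM in the caudal libraries and 1.21, 0.48 and 1.19 TPM in the yolk sac (limma adjusted p = 0.359). Its high value was in caudal replicate 3, the library in which Atf3 was also highest. Vldlr, a lipoprotein receptor gene, was at 1.70 against 0.48 TPM (adjusted p = 0.208). Psat1, an enzyme of serine synthesis, was at 122.0 against 196 TPM (adjusted p = 0.502), with its highest value of 279 TPM in yolk sac replicate 2.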
